A study of Homo sapiens with 6 samples.

Results

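The genes described here encode the initiation factors (eIFs) and elongation factors (eEFs) of cytosolic translation, together with a few relatives that carry the same names. They were taken from the GENCODE 44 annotation of GRCh38 as the protein-coding genes whose symbol begins with EIF1, EIF2, EIF3, EIF4, EIF5, EIF6 or EEF. The kinases of eIF2 (EIF2AK genes) and the eIF4E-binding proteins (EIF4EBP genes) were left out of this set and are given separately as regulators. The rule used no measured value and found 65 of 62252 genes.

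Messenger RNA was measured in K562 cells, a human erythroid leukemia line, with or without induction of Flag-tagged PCBP1, a protein that binds C-rich RNA and carries iron. All 6 libraries came from a line derived from 1 clone with a lox landing site at AAVS1, into which a cassette with Flag-PCBP1 under a tet-inducible promoter and puromycin resistance had been exchanged by Cre. The resulting line was polyclonal and kept under puromycin. The 3 control libraries (−Dox) carried the same cassette and received no doxycycline (Dox), and the other 3 (+Dox) were treated with Dox, so the effects of Dox and of Flag-PCBP1 cannot be told apart here. The dose and duration of Dox for these libraries are not given in the sources used here. The labels do not say whether the libraries came from separate cultures, so p-values measure only the spread between these samples, which may be technical.

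The estimated counts summed to 84177316, 80104627 and 74766040 in the −Dox libraries and to 70905656, 82263502 and 82449808 in the +Dox libraries. PCBP1 mRNA stood at 248, 270 and 267 CPM (counts scaled for library size with TMM factors) in −Dox and at 1030, 936 and 1037 CPM in +Dox. The groups were far apart, with a log2 fold change of 1.94 (SE 0.0551, n = 3 per group, edgeR adjusted p = 5.22e-10), which counts endogenous and cassette transcripts together. All 9 markers of K562 cells had a mean of at least 1 CPM, with the fetal globin HBG2 the most abundant at 3600 CPM. The 4 monocyte markers held 1 such gene, LYZ, whose level fell in +Dox, and the list summed to 120, 145 and 169 CPM in −Dox and to 98.9, 98.6 and 116 CPM in +Dox. Its other markers CD14, CSF1R and FCGR3A stayed under 1 CPM in every library, and the part of LYZ in the results that follow was not tested. The 4 epithelial markers held 2 such genes, KRT19 (77.6 ± 11.2 CPM in −Dox and 72.3 ± 5.44 in +Dox) and EPCAM (45.8 ± 0.459 and 42.3 ± 1.3 CPM), while CDH1 and KRT5 stayed near 0. Of the T cell markers CD3D was at 20.1 to 21.9 CPM in −Dox and at 13.3 to 25.7 CPM in +Dox, with CD3E, CD3G and CD2 under 1 CPM. None of these was called. Of the 4 fibroblast markers COL1A1 alone was above 1 CPM, with a mean of 1.77 CPM.

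As background, translation begins when eIF2 carries initiator tRNA to the small ribosomal subunit. There eIF1, eIF1A and the large eIF3 complex hold the ribosome open for scanning. The cap-binding protein eIF4E, the scaffold eIF4G and the RNA helicase eIF4A load the mRNA, and eIF5B joins the large subunit. The exchange factor eIF2B recharges eIF2 with GTP and is the step that the integrated stress response slows. During elongation, eEF1A delivers aminoacyl-tRNA and eEF2 moves the ribosome along the mRNA. The mRNAs of several of these factors begin with a C followed by a run of pyrimidines, the terminal oligopyrimidine (TOP) feature through which mTOR signalling controls their translation.

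With PCBP1 induced, 13 of the 62 translation factor genes tested fell by a modest amount, spread over the eIF4A helicases, eIF2B, eIF3 and the factors of start codon selection. Of these calls 7 held in all 17 alternative settings, EIF4A2 was lost in 10, EIF3D, EIF4G2 and EIF5B in 6 each, EIF1AX in 3 and EIF2B4 in 2. The 3 genes that rose, EEF1A2, EIF5A2 and EIF4E3, are each the scarcer paralog of an abundant factor, and the calls of EIF5A2 and EIF4E3 were lost in 6 and 10 settings. The abundant elongation factors, among them EEF1A1 and EEF2, did not pass the test. Of the 65 genes, 62 had a mean count above 10 and were tested with edgeR's quasi-likelihood test, with Benjamini-Hochberg adjustment over all 21045 genes tested. At an adjusted p under 0.05, 16 were called, against 15.8% of all genes tested. Of these, 13 were lower in +Dox (7.68% of all genes) and 3 were higher (8.16% of all genes).

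The 16 called genes are 25.8% of the 62 tested. Among protein-coding genes with a mean of at least 10 CPM the called share was 26.8%, and among the 56 translation factor genes at that level it was 28.6%, so the number of calls is near that of other well-expressed genes. The 39 translation factor genes with a mean of at least 100 CPM had 10 calls, all lower (25.6%), where 18.5% of the 2012 protein-coding genes at that level were called lower and 8.7% higher, a difference in direction that was not tested. The median log2 fold change of those 39 genes was −0.09, and that of the 2012 was −0.04. Over all 62 tested genes, 42 had a negative and 20 a positive log2 fold change, with a median of −0.08 against 0.01 for all genes tested.

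No call reached a log2 fold change of 1 in either direction, where 1.46% of all genes tested were called with such a change, and the same held with DESeq2 and with limma. The called genes that were lower fell by 9.26% at the least, for EIF4A2, and their mean CPM fell by 22.3% at the most, for EEF1AKMT4. In each of the 16 called genes the 3 libraries of 1 group lay entirely above the 3 of the other. Over all 62 tested genes the groups did not overlap in 27 that were lower and 6 that were higher, against 15.8% and 17.4% of all genes. Among the 39 genes with a mean of at least 100 CPM 56.4% were lower and 7.69% higher without overlap, where 31.8% and 15.9% of the 2012 protein-coding genes at that level were, and this difference was not tested either.

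**Figure D1:**
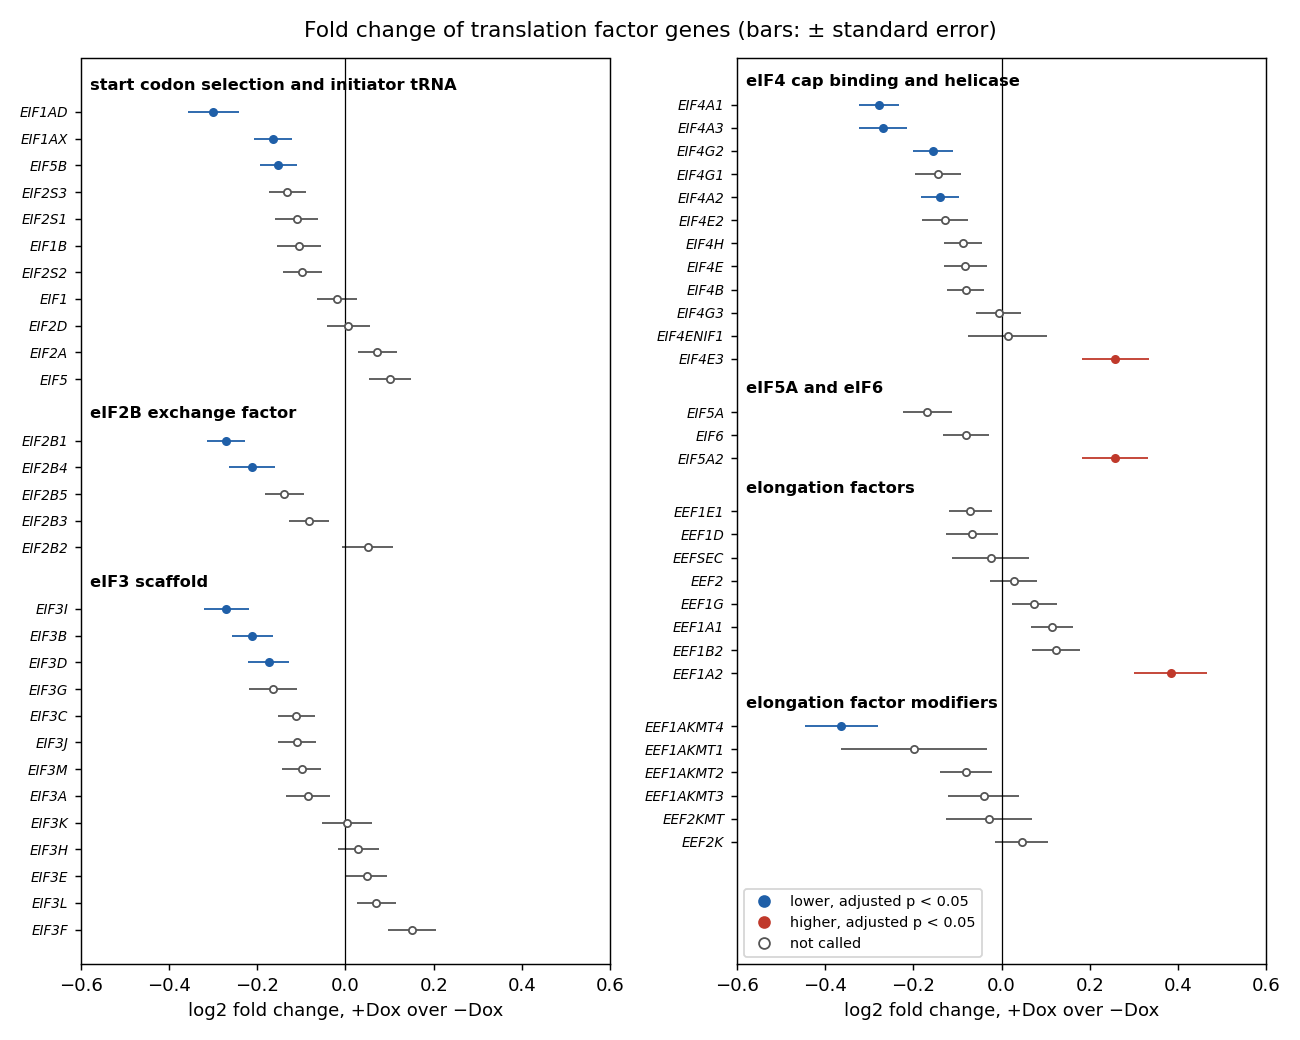
Log2 fold change (+Dox over −Dox) of 58 tested translation factor genes, grouped by role, with bars for ± 1 standard error. The 4 near-identical copies are not drawn, filled points mark genes with an edgeR adjusted p under 0.05 (13 lower, 3 higher), and no point lies beyond 1 in either direction.

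**Figure D2:**
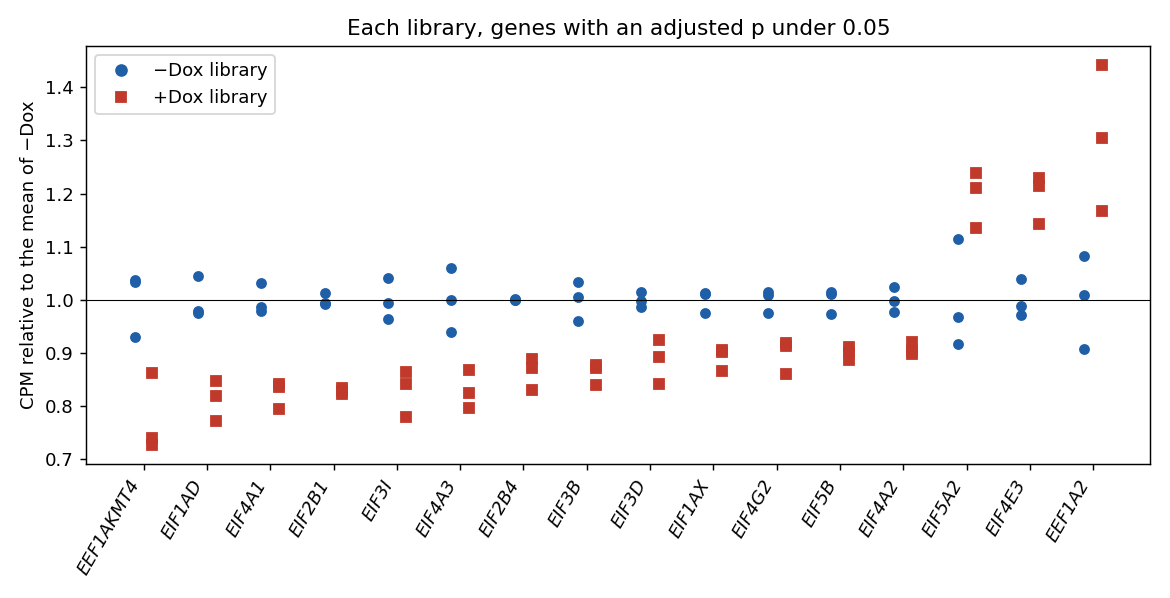
CPM of the 16 called genes in each library, divided by the mean of the 3 −Dox libraries. In each gene the −Dox points (circles) and the +Dox points (squares) do not overlap, and EEF1A2 shows the widest spread among the +Dox libraries.

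The eIF4 group loads mRNA onto the small subunit, and 5 of its 12 tested genes were called, 4 lower and 1 higher, with a median log2 fold change of −0.11. These calls are 33.3% and 8.33% of the 12. For this and the role groups that follow, 7.68% of all genes tested were called lower and 8.16% higher. Among protein-coding genes with a mean of at least 10 CPM the shares were 14% and 12.8%. No difference between a role group and these shares was tested. EIF4A1 (chr17:7572824-7579006, plus strand) encodes the main RNA helicase of cap-dependent initiation. Its level was 891, 938 and 897 CPM in −Dox and 765, 722 and 760 CPM in +Dox. Every +Dox library was below every −Dox library, a log2 fold change of −0.28 (SE 0.0451, n = 3 per group, edgeR adjusted p = 0.00122). Same-strand models overlap 42.1% and 28.2% of the exon bases of EIF4A1, but the overlapping ENSG00000264772 and SENP3-EIF4A1 held only 7.12 and 3.72 CPM in −Dox.

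The related helicase EIF4A3 (chr17:80134369-80147151, minus strand) is not an initiation factor in the strict sense but the core of the exon junction complex that is deposited on spliced mRNA. It was at 151, 170 and 161 CPM in −Dox and at 140, 128 and 133 CPM in +Dox, without overlap, with a log2 fold change of −0.27 (SE 0.0545, edgeR adjusted p = 0.00496). EIF4A2, the second helicase of initiation, fell less, from 691 ± 16.2 to 627 ± 7.94 CPM (mean ± SD, n = 3), a log2 fold change of −0.14 (edgeR adjusted p = 0.0408), a call lost in 10 of 17 settings, leaving out any 1 library among them. EIF4G2, a relative of eIF4G that lacks the eIF4E-binding part and serves initiation without the cap-binding protein, fell from 932 ± 20 to 837 ± 29.9 CPM (log2 fold change −0.16, edgeR adjusted p = 0.0338), a call lost in 6 settings, 5 of them the omission of any 1 library but +Dox replicate 2.

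The remaining eIF4 genes include the cap-binding protein and its scaffold. EIF4E3, a distant relative of the cap-binding protein, was at 10.1, 9.91 and 10.6 CPM in −Dox and at 11.7, 12.5 and 12.4 CPM in +Dox. All +Dox libraries were higher, with a log2 fold change of 0.26 (SE 0.0759, edgeR adjusted p = 0.0356). This call was lost in 10 of the 17 settings, leaving out any 1 library among them, with an adjusted p of up to 0.452 with limma on log2 TPM. EIF4E itself had a log2 fold change of −0.08, EIF4E2 of −0.13, the scaffold EIF4G1 of −0.14 and its paralog EIF4G3 of −0.01, and none of these passed the test (edgeR adjusted p from 0.0804 for EIF4G1 to 0.955 for EIF4G3). EIF4G1 was called lower in 3 settings, DESeq2 and the omission of −Dox replicate 1 among them. The helicase cofactors EIF4B and EIF4H, both without overlap between the groups, stood at −0.08 and −0.09 on the same scale, and limma called EIF4B lower. EIF4E1B, a cap-binding relative of oocytes, had 0 counts in all 6 libraries, which allows up to 3 counts in each. EIF4ENIF1, which carries eIF4E into the nucleus and to sites of mRNA decay, was at 0.01.

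The exchange factor eIF2B has 5 subunits, and 2 were called, both lower, with a median log2 fold change of −0.14. That is 40% of the 5, against 7.68% of all genes tested and 14% of protein-coding genes with a mean of at least 10 CPM. EIF2B1 (chr12:123620406-123633766, minus strand) encodes the alpha subunit, which belongs to the regulatory part of the complex. It was the translation factor gene with the smallest p, at 116, 114 and 114 CPM in −Dox and 95.9, 95.1 and 94.6 CPM in +Dox. The libraries within each group lay close together and the groups were well apart (log2 fold change −0.27, SE 0.0434, n = 3 per group, edgeR adjusted p = 0.00114). DDX55 overlaps 14.8% of its exon bases on the opposite strand and moved by a similar amount (log2 fold change −0.27, edgeR adjusted p = 0.00616), and since the strand setting of the counting is not known, reads of that stretch cannot be told apart.

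EIF2B4, the delta subunit of the same regulatory part, fell from 44.2 ± 0.0514 to 38.2 ± 1.36 CPM (log2 fold change −0.21, edgeR adjusted p = 0.0144), a call lost with a length offset and without +Dox replicate 2. EIF2B5, the catalytic subunit, had a log2 fold change of −0.14 with no overlap between the groups but an edgeR adjusted p of 0.0542, and it was called in 4 settings, DESeq2 among them. EIF2B3 was at −0.08 and EIF2B2 at 0.05, neither past the test, though EIF2B3 was called lower with a length offset and with limma. The 5 subunits together summed to 402, 405 and 408 CPM in −Dox and to 366, 361 and 368 CPM in +Dox.

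The factors that select the start codon and carry initiator tRNA gave 3 calls among 13 tested genes, all lower, with a median log2 fold change of −0.10. That is 23.1% of the 13. Of protein-coding genes, 14% were called lower at a mean of at least 10 CPM and 18.5% at 100 CPM or more. EIF1AD (chr11:65996545-66002176, minus strand), a nuclear protein with a domain like that of eIF1A, was at 36.7, 39.2 and 36.5 CPM in −Dox and at 31.8, 30.7 and 28.9 CPM in +Dox. The groups did not overlap, and the log2 fold change was −0.30 (SE 0.0579, edgeR adjusted p = 0.00376). EIF1AX, which encodes the scanning factor eIF1A, fell from 373 ± 7.79 to 333 ± 8.06 CPM (log2 fold change −0.16, edgeR adjusted p = 0.0215), a call lost in 3 settings, among them the omission of −Dox replicate 2 or +Dox replicate 1. With limma on log2 TPM its value was −0.27. EIF5B, the GTPase that joins the ribosomal subunits, fell from 464 ± 11 to 418 ± 5.62 CPM (log2 fold change −0.15, edgeR adjusted p = 0.0293), with REV1 on the opposite strand over 10.8% of its exon bases. The EIF5B call was lost in 6 settings, 5 of them the omission of any 1 library but −Dox replicate 3.

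The subunits of eIF2 itself stayed short of the threshold in edgeR with TMM factors. EIF2S3 (gamma) had a log2 fold change of −0.13 and an edgeR adjusted p of 0.0503, just outside the limit, while EIF2S1 (alpha, the subunit that stress kinases phosphorylate) was at −0.11 and EIF2S2 (beta) at −0.10. EIF2S3 was called lower in 6 of the 17 settings, among them DESeq2 and upper-quartile factors, and EIF2S1 with limma. In all 3 the +Dox libraries lay below the −Dox libraries. Summed over all transcript models, EIF1 and EIF2S1 were the most abundant of the group per length (mean 389 and 271 TPM). TPM is a unit scaled for transcript length. Retained-intron models held 69.5% of the TPM of EIF2S1. Protein-coding models held 48.25% of that of EIF1 and 83.9% of that of EIF2S3 (mean 227 TPM). The order on protein-coding models alone was not computed. EIF1 had a log2 fold change of −0.02, and EIF1B one of −0.11. EIF5, which activates the GTPase of eIF2, and EIF2A, which can deliver initiator tRNA outside eIF2, had higher values in every +Dox library (0.10 and 0.07 on the log2 scale), with edgeR adjusted p of 0.182 and 0.312. EIF2D, another carrier of initiator tRNA, was at 0.01.

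The eIF3 complex is the scaffold of the small subunit during initiation, and 3 of the 14 tested genes were called, all lower, with a median log2 fold change of −0.10. That is 21.4% of the 14, near the 18.5% of protein-coding genes with a mean of at least 100 CPM that were called lower. At 10 CPM or more that share was 14%. EIF3I (chr1:32221077-32245397, plus strand), a WD-repeat subunit of the module that also holds EIF3B and EIF3G, was at 402, 435 and 415 CPM in −Dox and at 352, 326 and 361 CPM in +Dox. No library of 1 group reached the other (log2 fold change −0.27, SE 0.0513, n = 3 per group, edgeR adjusted p = 0.00333). EIF3B, which anchors that module, fell from 270 ± 9.99 to 233 ± 5.36 CPM (log2 fold change −0.21, edgeR adjusted p = 0.00738). EIF3D, the subunit known for binding the cap of selected mRNAs, fell from 256 ± 3.7 to 227 ± 10.6 CPM (log2 fold change −0.17, edgeR adjusted p = 0.0239), a call lost in 6 settings, among them the length offset and the omission of −Dox replicate 2 or 3 or +Dox replicate 2 or 3.

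The third subunit of the module, EIF3G, had a log2 fold change of −0.16 with no overlap between the groups and an edgeR adjusted p of 0.0587, and it was called lower in 7 settings, among them DESeq2, limma and the omission of −Dox replicate 1. EIF3M, EIF3C, EIF3J and EIF3A also lay lower in every +Dox library, at −0.10, −0.11, −0.11 and −0.09 on the log2 scale. DESeq2 called EIF3C and EIF3J lower and limma EIF3M. EIF3F, EIF3L, EIF3E, EIF3H and EIF3K had values from 0.15 (EIF3F, edgeR adjusted p = 0.0832) down to 0.00 (EIF3K), with overlapping groups. The value for EIF3K changed sign with the scaling, to −0.01 with upper-quartile factors.

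Per length, in TPM, the eIF3 mRNAs spanned a 27.9-fold range of mean summed TPM. EIF3M was highest at 764 TPM, followed by EIF3K at 683, EIF3E at 629, EIF3I at 318 and EIF3L at 260. EIF3A, which encodes the largest subunit, was lowest at 27.3 TPM. These sums include short transcript models that do not encode the full protein, and protein-coding models held 47.7% of the TPM of EIF3M, 10.1% of EIF3L and 11.1% of EIF3F. Both ends of the order change on protein-coding models alone, where EIF3K was highest (652 TPM), followed by EIF3E (507 TPM) and EIF3M (364 TPM), and EIF3F (10.6 TPM) and EIF3L (26.2 TPM) lay below EIF3A (27.1 TPM). EIF3C and its near-identical copy EIF3CL cannot be separated with certainty, and 0.873% to 2.96% of the counts of the pair were placed on the copy.

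**Figure D3:**
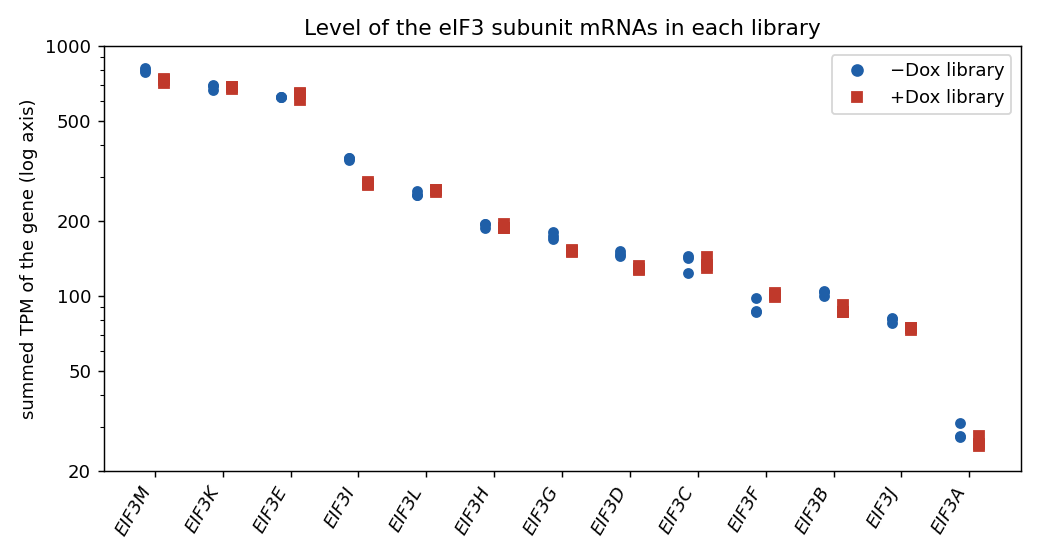
Summed TPM (log axis) of 13 eIF3 subunit mRNAs in each library, ordered by mean. EIF3M lies highest (764 TPM) and EIF3A lowest (27.3 TPM) in these sums over all models, while on protein-coding models alone EIF3K is highest (652 TPM) and EIF3F lowest (10.6 TPM). In TPM the +Dox squares lie below the −Dox circles for EIF3I, EIF3B, EIF3D, EIF3M, EIF3G and EIF3J, and above them for EIF3F.

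The elongation factors took most of the RNA. EEF1A1 alone held 46.7% of the summed mean TPM of the 65 genes, with 9863 ± 56.1 TPM in −Dox and 10448 ± 217 TPM in +Dox. In CPM it stood at 16630, 17385 and 16911 in −Dox and at 18457, 17413 and 19269 in +Dox, where the lowest +Dox library barely exceeded the highest −Dox library. The log2 fold change was 0.11 (SE 0.0473) with an edgeR adjusted p of 0.127, so the gene did not pass the test. With library totals in place of TMM factors it did, as did EIF3F, and under that scaling the median of all genes was 0.02 on the log2 scale in place of 0.01. Without +Dox replicate 2 EEF1A1 passed as well. The 49 annotated pseudogenes of EEF1A1 held at most 0.092% of the counts of the family.

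The partners of eEF1A in the exchange complex were also short of the threshold. EEF1G was at 1578 mean TPM with a log2 fold change of 0.07, EEF1B2 at 813 mean TPM with 0.12, and EEF1D at 266 mean TPM with −0.07 (edgeR adjusted p of 0.382, 0.152 and 0.513). EEF2, the translocase, was at 1019, 1069 and 1136 CPM in −Dox and at 1118, 1031 and 1137 CPM in +Dox, with fully overlapping groups and a log2 fold change of 0.03 (SE 0.0536). EEF1E1, a scaffold protein of the multi-synthetase complex, was at −0.07, and EEFSEC, which delivers selenocysteine tRNA, at −0.03.

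EEF1A2 was the only elongation factor gene of the 8 that was called. It encodes the eEF1A of muscle and neurons, which is scarce in most other cells and is also known from tumors. On chr20:63488013-63499239 (minus strand), it was at 25.2, 30 and 28 CPM in −Dox and at 36.2, 32.3 and 40 CPM in +Dox. The log2 fold change was 0.38 (SE 0.0824, n = 3 per group, edgeR adjusted p = 0.00704), the highest among the tested translation factor genes. A non-stop decay model held 45.5% to 60.6% of its TPM in 5 libraries, but 0% in +Dox replicate 3, where the protein-coding models held 93.5%, so its TPM rests on the model chosen while its summed count does not.

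Of the 6 genes for enzymes that modify elongation factors, EEF1AKMT4 was called. It encodes a lysine methyltransferase of eEF1A (chr3:184249672-184258759, plus strand) and was at 16.7, 18.6 and 18.7 CPM in −Dox and at 13.3, 13.1 and 15.5 CPM in +Dox. The +Dox libraries were all lower, with a log2 fold change of −0.36 (SE 0.0822, edgeR adjusted p = 0.00943), the largest fall among the called genes. The kinase EEF2K, which inhibits eEF2, had a log2 fold change of 0.05, and the other methyltransferases EEF1AKMT1, EEF1AKMT2, EEF1AKMT3 and EEF2KMT ranged from −0.20 to −0.03 with overlapping groups. The read-through genes EEF1AKMT4-ECE2 and EEF1E1-BLOC1S5 stayed at or under 0.169 CPM in every library and were not tested.

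The last group holds eIF5A, which carries the modified lysine hypusine and helps the ribosome through difficult peptide bonds, and EIF6, which keeps the subunits apart. EIF5A2 (chr3:170888418-170908644, minus strand), the scarce paralog of eIF5A, was at 21, 25.6 and 22.2 CPM in −Dox and at 26.1, 27.8 and 28.4 CPM in +Dox. The lowest +Dox library only just exceeded the highest −Dox library, with a log2 fold change of 0.26 (SE 0.0742, edgeR adjusted p = 0.033). Across the 17 settings this value ran from 0.20 (without −Dox replicate 1) to 0.49 (with a length offset), and the call was lost in 6 of them. These were both of the above, limma with the highest adjusted p (0.15), and the omission of replicate 3 of −Dox or of replicate 2 or 3 of +Dox. EIF5A, at 470 mean TPM against 11.5 for EIF5A2, had a log2 fold change of −0.17 with an edgeR adjusted p of 0.0573, and EIF6 one of −0.08. EIF5A was called lower in 8 of the 17 settings, among them DESeq2, limma and the omission of replicate 1 of either group. EIF5AL1 and EIF2S3B, near-identical copies of EIF5A and EIF2S3, stayed at or under 0.461 and 1.81 CPM, and their counts, like those of EIF3CL and of the copy of EIF1AX, are uncertain.

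Several of these factors are encoded by paralog families, and the share of each paralog was computed from the summed TPM of its family. These sums take in all transcript models of a gene. Protein-coding models held 41.6% of the TPM of EIF4A2 against 92.1% for EIF4A1, and 48.25% for EIF1 against 95.4% for EIF1B. Shares on protein-coding models alone would differ and were not computed. EIF4A2 held 38.5%, 37.2% and 37.4% of the EIF4A1 and EIF4A2 total in −Dox and 40.1%, 40.8% and 40.5% in +Dox. Both genes fell, EIF4A1 by 0.28 and EIF4A2 by 0.14 on the log2 scale. EIF5A2 went from 1.88 ± 0.486% to 2.96 ± 0.135% of its family, EIF4E3 from 1.33 ± 0.0489% to 1.7 ± 0.197%, and EEF1A2 from 0.165 ± 0.00877% to 0.196 ± 0.00722% (mean ± SD, n = 3). EIF4G3 went from 3.04 ± 0.229% to 3.61 ± 0.284%, and EIF1B went the other way, from 20.7 ± 0.293% to 19.4 ± 0.526%. The groups did not overlap in these 6 shares, whereas those of EIF4E, EIF4E2, EIF4G1 and EIF4G2 overlapped. With 3 libraries against 3, an exact two-sided permutation test cannot give a p below 0.1, so the shares are descriptions.

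**Figure D4:**
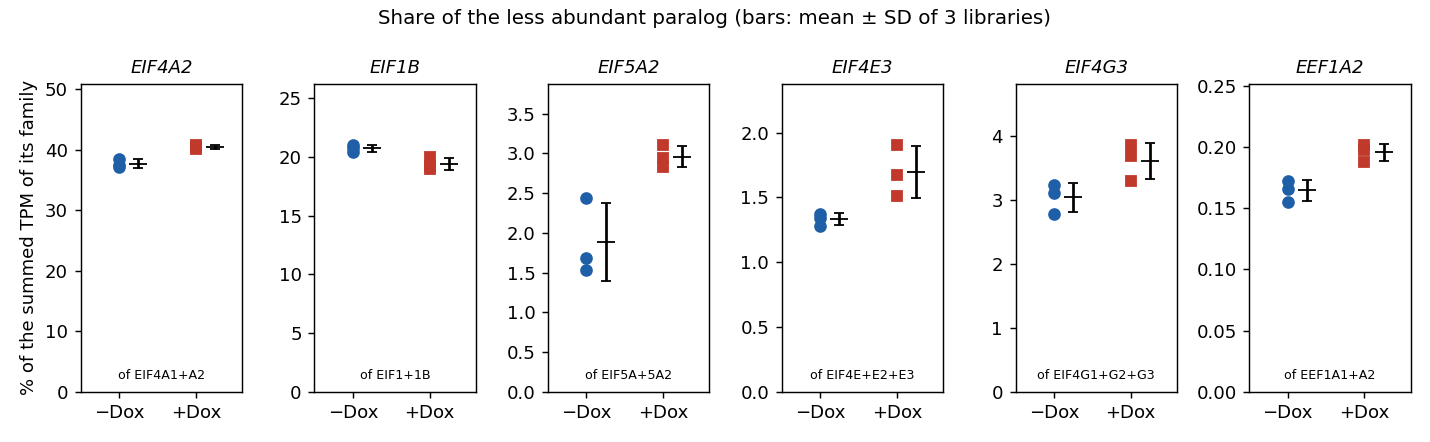
Share of the summed TPM of its family held by the scarcer paralog, in % (linear axes from 0, a scale of its own in each panel), for each library with the mean ± SD of 3 libraries. The sums take in all transcript models of each gene, protein-coding or not. EIF4A2, EIF5A2, EIF4E3, EIF4G3 and EEF1A2 lie higher in +Dox and EIF1B lies lower, without overlap.

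At the transcript level, 574 of 823 annotated transcripts of these genes had a mean count above 10. None was called at an adjusted p under 0.05 by edgeR, where 0.204% of all 86178 transcripts were called and the smallest adjusted p of a translation factor transcript was 0.0726. At an unadjusted p under 0.05, 48 were lower and 15 higher, against 4.75% and 5.29% of all transcripts tested. DESeq2 called 31 lower and 7 higher, where it called 3.13% of all transcripts lower and 3.69% higher. Limma on log2 TPM called 3 lower and 0 higher, against 0.272% and 0.222% of all transcripts. On simulated counts the transcript test found 8% of 4-fold changes, which is the limit on what the count of 0 says. With a mean count above 100 it called 4 lower, where 0.624% of all such transcripts were lower and 0.921% higher. Without +Dox replicate 3 it called 1 lower, the only lower call among all transcripts (0.00116%, with 0.00349% higher).

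EIF4H encodes a cofactor of the eIF4A helicases, and 2 of its transcripts that differ by a coding exon had shares that did not overlap between the groups. Among the 126 transcripts with at least 10% of the TPM of their gene, 28 (22.2%) had such shares, against 14.8% of the transcripts with that much of any protein-coding gene averaging 10 CPM or more, and the transcripts described here were chosen for a small p. The transcript EIF4H-201 includes exon 5, and EIF4H-202 lacks it. Exon 5 lies at chr7:74190247-74190306 on the plus strand of GRCh38, is 60 bases long and adds 20 codons in frame. It is shown with 30 bases of the intron before it and 20 of the intron after it, with the exon in capitals.

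EIF4H exon 5: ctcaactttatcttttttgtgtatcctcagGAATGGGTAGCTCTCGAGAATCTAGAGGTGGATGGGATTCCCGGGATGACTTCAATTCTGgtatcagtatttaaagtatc

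The transcript with the exon held 25.1%, 27.7% and 28.4% of the EIF4H TPM in −Dox and 21.2%, 22% and 20.2% in +Dox. The transcript without it held 66.6%, 64.8% and 64.9% in −Dox and 71.5%, 71.2% and 73.3% in +Dox. Neither pair of groups overlapped, so the skipped form was more frequent in every +Dox library. The count of EIF4H-201 had a log2 fold change of −0.41 (SE 0.0771), with an edgeR adjusted p of 0.15 that does not pass the threshold, while the gene as a whole was at −0.09.

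For EIF3I, the short transcript EIF3I-201 (858 bases) held 24.4%, 24.3% and 21.1% of the TPM in −Dox and 18.3%, 20.2% and 17% in +Dox. The reference (MANE) transcript EIF3I-224 (1421 bases) held 69.8 ± 2.48% and 75 ± 1.32%. The count of EIF3I-201 had a log2 fold change of −0.63 (SE 0.0875, edgeR adjusted p = 0.0823) and that of EIF3I-224 one of −0.17, so both fitted values were below 0 and the short form was the lower. For EIF2S1, the retained-intron model EIF2S1-203 held 31.6 ± 1.51% in −Dox and 27.8 ± 0.673% in +Dox, with a log2 fold change of −0.40 (edgeR adjusted p = 0.22). The main transcripts EIF4A1-201, EIF2B1-201 and EIF4A3-208 had log2 fold changes of −0.22, −0.22 and −0.23 (edgeR adjusted p of 0.0939, 0.0946 and 0.14), near those of their genes.

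**Figure D5:**
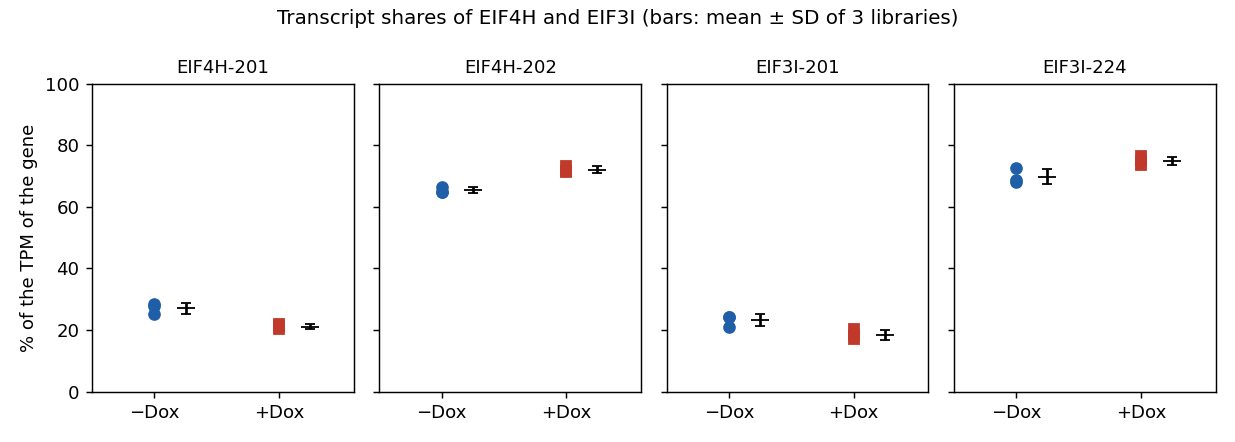
Share of the TPM of the gene, in %, held by 2 transcripts of EIF4H and 2 of EIF3I in each library, with the mean ± SD of 3 libraries. EIF4H-201, which includes exon 5, and EIF3I-201 lie lower in +Dox, and EIF4H-202 and EIF3I-224 lie higher.

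The TOP feature was read from RefSeq sequence around annotated starts (GRCh38.p14). The letters searched were a C at the annotated start followed on the transcribed strand by at least 4 bases that are each C or T. Windows of 10 bases before the start and 20 from the start on are shown for the 4 genes EEF1A1, EEF2, EEF1B2 and EIF3F, which hold such a run, and for the 3 genes EIF4A1, EIF2B1 and EIF3I, which fell and do not. Capitals mark the run.

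EEF1A1 chr6:73521013-73521042 minus strand: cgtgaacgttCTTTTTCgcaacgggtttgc
EEF2 chr19:3985444-3985473 minus strand: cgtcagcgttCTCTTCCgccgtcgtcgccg
EEF1B2 chr2:206159885-206159914 plus strand: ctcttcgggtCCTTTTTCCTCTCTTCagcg
EIF3F chr11:7987327-7987356 plus strand: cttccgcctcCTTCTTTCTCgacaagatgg
EIF4A1 chr17:7572815-7572844 plus strand: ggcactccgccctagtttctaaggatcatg
EIF2B1 chr12:123633667-123633696 minus strand: gtacggaagtgcgccggaagtggggtgcgg
EIF3I chr1:32222397-32222426 plus strand: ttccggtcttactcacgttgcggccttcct

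The run was found at a start of 13 of the 53 translation factor genes in the sequence table (24.5%), and of 5.14% of all 27305 genes there. All 13 were tested, with a median log2 fold change of 0.01 and 2 calls, both lower (EIF3D and EIF4A2). Of the genes in the table without the run, 37 were tested, with a median of −0.11 and 13 calls, 11 lower and 2 higher. Over all genes tested 15.8% were called, and 26.8% of protein-coding genes at or above 10 CPM on average. The difference between the genes with and without the run was not tested. A match describes the letters at an annotated start only.

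The counts in the lists that follow stand beside 8.16% of all genes tested called higher and 7.68% called lower. Among protein-coding genes with a mean of at least 10 CPM the shares were 12.8% higher and 14% lower. No difference between a list and these shares was tested.

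A separate list of 9 of these genes known as TOP mRNAs (EEF1A1, EEF1B2, EEF1D, EEF1G, EEF2, EIF3E, EIF3F, EIF3H and EIF4B) had a median log2 fold change of 0.05. None of the 9 was called by edgeR with TMM factors or by DESeq2, and 3 were higher and 0 lower at an unadjusted p under 0.05 in edgeR. At that threshold 14.9% of all genes tested were higher and 13.8% lower, and 20.2% and 22.7% of the protein-coding genes averaging 10 CPM or more. With library totals alone edgeR called 2 higher, without +Dox replicate 2 it called 1 higher, and limma on log2 TPM called 1 lower. The median of the list was 0.009 without +Dox replicate 3 and 0.017 with limma. The cytosolic ribosomal protein genes, which are the largest TOP family, had 3 calls among 83 tested, 2 higher and 1 lower (2.41% and 1.2%), with a median of 0.04. Across the settings it had 1 to 5 higher and 0 to 3 lower calls, and its median went from −0.02 without −Dox replicate 1 to 0.09 without +Dox replicate 2. RPL36A rose by 0.33 and RPL23A by 0.20 on the log2 scale (edgeR adjusted p = 0.000789 and 0.0201), and RPL7L1, a paralog that serves ribosome assembly, had a log2 fold change of −0.19 (edgeR adjusted p = 0.00949). The RPL23A call was lost in 8 of the 17 settings, 5 of them the omission of any 1 library but +Dox replicate 2.

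Among the 7 regulators that the naming rule leaves out, 2 were called, both higher (28.6%, against 12.8% of the expressed protein-coding genes above), with a median log2 fold change of 0.08. The median was 0.13, 0.16 and 0.055 without −Dox replicate 1, 2 and 3 and 0.15 with a length offset, which gave 3 higher calls, and limma gave 1. EIF2AK1 encodes HRI, the kinase that phosphorylates eIF2 alpha when heme is low and is abundant in erythroid cells. It was at 264, 270 and 273 CPM in −Dox and at 350, 330 and 338 CPM in +Dox. The groups were far apart (log2 fold change 0.34, SE 0.0439, n = 3 per group, edgeR adjusted p = 0.000284). EIF4EBP2, which holds eIF4E away from eIF4G, was at 137, 138 and 138 CPM in −Dox and 159, 162 and 165 CPM in +Dox (log2 fold change 0.23, edgeR adjusted p = 0.00263), a call lost with limma. The kinases EIF2AK3, EIF2AK2 and EIF2AK4 were at 0.17, 0.08 and −0.12, and EIF4EBP1 at −0.11, none past the test.

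Of 9 target genes of the integrated stress response, the program that follows eIF2 phosphorylation, 5 were called, all lower (55.6%, against 14% of the expressed protein-coding genes above), with a median log2 fold change of −0.24. The transcription factor ATF4 was at 266, 215 and 232 CPM in −Dox and at 209, 189 and 205 CPM in +Dox (log2 fold change −0.24, edgeR adjusted p = 0.035), a call lost in 8 of the 17 settings, 5 of them the omission of any 1 library but −Dox replicate 2. CHAC1, a glutathione-degrading enzyme, was at 3.45, 1.12 and 1.53 CPM in −Dox and at 0.465, 0.615 and 0.542 CPM in +Dox, with a log2 fold change of −1.91 (edgeR adjusted p = 0.00384). ATF3 was at −0.89, PSAT1 at −0.33 and SESN2 at −0.40 on the same scale (edgeR adjusted p from 0.00433 to 0.0297). The rest of the list stayed near 0, with ASNS at −0.06, DDIT3 and PHGDH at −0.04 and TRIB3 at 0.01. None of these passed the test (edgeR adjusted p from 0.696 to 0.915). PSAT1 stood at 93.15 CPM in −Dox replicate 1, against 69.83 and 70.05 CPM in the other −Dox libraries and 60.65 to 63.88 CPM in +Dox. The size of its fall thus rests in large part on that 1 library. ATF3 and CHAC1 were highest in that library as well. ATF3 was at 15.8 CPM there, against 8.31 and 10.9 CPM in the other −Dox libraries. In +Dox ATF3 was at 6.15 to 6.52 CPM. The SESN2 call was lost in 7 settings, among them the omission of any 1 library but −Dox replicate 2, and PSAT1 in 5, among them the omission of any 1 +Dox library. The summed level of the list was highest in −Dox replicate 1, at 633 CPM against 494 and 530 in the other −Dox libraries and 466 to 498 in +Dox. Without −Dox replicate 1 the median was −0.15. Without −Dox replicate 1 or −Dox replicate 3, 3 of the 9 were called, without any 1 of the +Dox libraries or with a transcript length offset 2 were, and limma on log2 TPM called none.

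Other cytosolic translation factors outside the naming rule, such as release factors, poly(A)-binding proteins and the enzymes that make diphthamide on eEF2, gave 13 calls among 33 tested genes, 8 lower (24.2%, against 14%) and 5 higher (15.2%, against 12.8%), with a median of −0.11. PPP1R15A, the stress-induced phosphatase subunit that removes the phosphate from eIF2 alpha, rose from 37.5 ± 1.91 to 46.7 ± 1.24 CPM (log2 fold change 0.32, edgeR adjusted p = 0.00206). PPP1R15B, the constitutive subunit of the same phosphatase, fell from 70.8 ± 2.22 to 62.1 ± 1.03 CPM (log2 fold change −0.19, edgeR adjusted p = 0.018), a call lost in 4 settings, among them the omission of +Dox replicate 3. DPH6, an enzyme of diphthamide synthesis, rose from 9.98 ± 0.515 to 13.3 ± 0.52 CPM, and PDCD4, an inhibitor of eIF4A, from 43.3 ± 4.25 to 55 ± 0.898 CPM (log2 fold changes of 0.42 and 0.34, edgeR adjusted p = 0.00279 and 0.00369), and both calls were lost with a length offset and with limma. Of the other diphthamide genes tested, DPH2, DPH1 and DPH5 fell, with log2 fold changes of −0.32, −0.25 and −0.19 (edgeR adjusted p = 0.00559, 0.0196 and 0.0373), and DPH7 was at −0.12, not past the test. The DPH2 call was lost with limma alone, DPH1 in 5 settings, among them the omission of −Dox replicate 3, +Dox replicate 1 or +Dox replicate 2, and DPH5 in 6, among them the omission of −Dox replicate 2 or of any +Dox library. The remaining calls were PAIP2B and TPT1, higher, and GCN1, ETF1, PABPC4 and ABCF1, lower. PAIP2B was lost with limma alone, GCN1 with a length offset and with limma, and ETF1 with a length offset and with the replicate block. ABCF1 was lost in 10 settings, 5 of them the omission of any 1 library but −Dox replicate 1. TPT1 was lost in 6, among them the omission of replicate 1 or 3 of either group, and PABPC4 in 6, among them the omission of −Dox replicate 2 or 3 or +Dox replicate 3. Across the alternative settings this list had 1 to 11 lower and 2 to 5 higher calls.

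The factors that translate the mitochondrial genome gave 3 calls among 10, all lower (30%, against 14%), with a median of −0.09, and 2 to 5 lower calls across the settings. They were the elongation factor TUFM (270 ± 17 to 225 ± 13.5 CPM), the initiation factor MTIF2 (145 ± 2.86 to 127 ± 4.4 CPM) and the recycling factor MRRF (69.5 ± 1.34 to 58.8 ± 1.82 CPM). Their log2 fold changes were −0.26, −0.19 and −0.24 (edgeR adjusted p = 0.00871, 0.0121 and 0.00501). The MTIF2 call was lost with the replicate block and without +Dox replicate 2, and the MRRF call with a length offset. Of 10 genes of mTOR and MNK signalling, MKNK2, a kinase of eIF4E, was called lower (10%, against 14%), with a log2 fold change of −0.26 (edgeR adjusted p = 0.0151). No gene of that list was called in 5 of the 17 settings, namely with a length offset, with limma, and without −Dox replicate 2, −Dox replicate 3 or +Dox replicate 2.

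The cytosolic aminoacyl-tRNA synthetases, which charge the tRNAs that eEF1A delivers, gave 6 calls among 18, all lower (33.3%, against 14%, and against 18.5% of the protein-coding genes with a mean of at least 100 CPM), with a median of −0.12, and 3 (length offset) to 9 (DESeq2) lower calls across the settings. Without −Dox replicate 1 the median was −0.08. KARS1 fell from 351 ± 11 to 302 ± 10.5 CPM, RARS1 from 172 ± 2.38 to 149 ± 6.12 CPM and IARS1 from 562.3 ± 29.5 to 487 ± 3.71 CPM, with edgeR adjusted p of 0.0072, 0.00876 and 0.00985. The IARS1 call was lost with the replicate block, and the calls of KARS1 and RARS1 held in all settings. The difference between this list and the translation factor genes was not tested. Of 5 proliferation markers, TOP2A was called, higher in +Dox (log2 fold change 0.17, edgeR adjusted p = 0.0348). That list had no higher call in 7 of the 17 settings, among them the length offset, limma, and the omission of −Dox replicate 2 or 3 or +Dox replicate 2 or 3. Limma on log2 TPM called 1 of the 5 lower, and the median of the list was −0.03 there, against 0.04 in the main test. In total the 65 genes held 3.38% to 3.42% of the estimated counts in −Dox and 3.44% to 3.56% in +Dox, and their summed TPM was 21720 to 21869 in −Dox and 21522 to 21885 in +Dox.

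Of the 16 calls, 8 held in all 17 alternative settings of the gene test, namely EIF2B1, EIF4A1, EIF4A3, EIF3I, EIF3B, EIF1AD, EEF1AKMT4 and EEF1A2. The remaining 8 were each lost in at least 2 settings, as given beside their values.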

How the data were processed

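Polyadenylated RNA of 6 K562 libraries (3 −Dox, 3 +Dox) was sequenced as paired ends of 150 cycles. Salmon 1.10.2 was run by the authors on each library alone, giving per transcript an unscaled estimated count and a TPM, which Salmon corrects for effective length and sequencing depth. The index and the strand and bias settings are not given in the sources used here, so counts of near-identical copies and of genes that overlap on opposite strands are uncertain.

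Transcripts were matched to GENCODE 44 (252045 in the files, 433 unmatched, 0.125% to 0.138% of counts), and counts were summed per gene and rounded. The test was edgeR 4.0.16 (TMM, quasi-likelihood test) in R 4.3.3 on genes whose mean count exceeded 10, +Dox against −Dox, with Benjamini-Hochberg adjustment over all genes and a call at an adjusted p under 0.05. CPM used TMM factors, and the SE was derived from the fold change and the F statistic. Transcripts were tested likewise. Shares of transcripts and paralogs came from TPM. Alternatives were DESeq2 1.42.0, limma 3.58.1 on log2(TPM + 0.1), other scalings and filters, copies added to the member, a length offset, each library left out and the replicate number as a block. On simulated data, the gene test recovered 63% of 100 genes changed 2-fold and 83% of 100 changed 4-fold among 21045 genes, with 17 unchanged genes called.

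The set of genes, the lists and the tests were chosen with earlier results of these data known. Named in the text were all called genes (the 5 with the smallest p in each direction in full), the paralogs, the 2 most abundant genes of each role, the genes not tested, up to 3 called genes of each list, PCBP1, and up to 6 transcripts with the smallest p and at least 10% of the TPM of their gene. Further genes were named after their values were seen. Promoter windows came from RefSeq and exon sequence from GRCh38. Sequence of proteins was not used here. Total depth was 70905656 to 84177316 estimated counts per library.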

Additional observations from a re-analysis of the deposited data

How the results depend on the processing

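The number of calls depended on the settings more than their direction did: no call changed sign in any of the 17 gene settings. Lower genes numbered 20 with DESeq2 in place of 13, 19 with limma, and 18 each with upper-quartile factors and with 10 or more counts in each library. The share of all genes called moved too, from 15.84% to 18.82% with DESeq2, 7.76% with limma, 8.95% with the length offset and 10.75% to 15.8% with 1 library left out. Higher genes numbered 1 with a length offset, 5 with library totals alone and 1 with limma on log2 TPM in place of 3. Leaving out 1 library gave 1 to 2 higher and 8 to 14 lower genes: 1 higher without −Dox replicate 1, −Dox replicate 3 or +Dox replicate 3, and 8 lower without −Dox replicate 2. With the replicate block 2 were higher and 8 lower, all among the 16 calls. The replicate numbers share only a number: the deviations of same-numbered libraries correlated at −0.0605 to 0.00752. Among transcripts, DESeq2 called 7 higher and 31 lower, a mean count above 100 gave 4 lower, limma 3 lower, and leaving out 1 library 0 to 1 lower (1 without +Dox replicate 3), where edgeR called 0. The cause of these differences was not tested.

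Sign changes were found in 14 of the 46 tested genes that were not called. They include 4 of the 17 uncalled genes followed one by one, and 10 others whose values stayed between −0.23 and 0.23. EIF3K went to −0.003815 with DESeq2, −0.003814 with its size factors in edgeR, −0.003327 with a summed count above 10, −0.002002 with 10 or more counts required in each library, −0.01118 with upper-quartile factors, −0.01066 with limma, and −0.04754 to 0.05195 with 1 library left out. EIF4G3 went to 0.08191 with the length offset, 0.01071 with library totals, 0.0453 with limma, and −0.03151 to 0.01374 with 1 library left out. EIF1 went to 0.01155 with the length offset and −0.04671 to 0.01373 with 1 library left out, and EEF2 to −0.03193 with limma and −0.01102 to 0.06982. The share of EIF4E3 in its family differed by 0.846 percentage points in estimated counts, more than in TPM. The precision is limited by 3 libraries per group, with a median SE of 0.05 on the log2 scale over 58 genes.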
